A study of Mus musculus with 16 samples.

Results

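The genes described here are 43 genes of the proliferative programme, 17 of which act in S phase and 26 in mitosis. They were chosen by name, each was read from the brightest of its probe sets, judged by the average of log2(intensity + 16) across all arrays, and 42 of the 43 were measured among 18194 genes in all. The cyclin gene Ccnb1 was not analysed here, because the annotation used here ties no probe set to it alone. The series profiled sorted mouse bone marrow cells on 16 Affymetrix arrays to compare normal ageing of hematopoietic stem cells (HSC), the multipotent cells at the base of blood formation, with the effect of a mitochondrial mutator genotype. Common lymphoid progenitors (CLP), which give rise to lymphocytes and are divided by the surface protein Ly6D, were profiled beside them.

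The Ly6D+ CLP and the Ly6D- CLP came from wild-type mice of 8 to 12 weeks, with 2 arrays each. The mutator HSC carried the genotype labelled Polgtm1Lrsn-/- and came from mice of 32 weeks, with 3 arrays, and their controls were Polgtm1Lrsn+/+ HSC of the same age, also with 3 arrays, called mid-aged WT here. The Polg allele encodes a mitochondrial DNA polymerase without proofreading in every cell of the animal. The old HSC came from wild-type mice of 24 months and the young HSC from wild-type mice of 9 to 12 weeks, with 3 arrays each. All mice were labelled female and C57Bl6, each array was made from 4000 to 7000 cells, and the replicates were labelled biological. Whether animals were pooled, and which markers gated the HSC, is not given in the sources used here.

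Cells that prepare to divide first make the proteins that license and copy their DNA and later the proteins that condense, align and separate the chromosomes. The early wave is driven mainly by E2F factors, and the late wave by the complex of B-Myb, FoxM1 and MuvB proteins, which acts through a promoter element called the CHR and through CCAAT boxes. Most HSC of adult marrow rest outside the cycle, whereas lymphoid progenitors divide more often. In bulk samples such as these, fewer cycling cells and less RNA of these genes per cell cannot be told apart.

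Several arrays stood apart from their labels or from the rest. The female transcript Xist was at most 16.8 and the Y-linked Eif2s3y at least 423 in 5 arrays, namely mid-aged WT replicate 3 and all 4 CLP arrays, whereas Xist was at least 3507 and Eif2s3y at most 12.7 in the other 11. These 5 arrays therefore went against the label female, and for the comparisons that use mid-aged WT replicate 3 the counts and medians are also given without it. The log2 ratio of the 3-prime to the 5-prime actin control, a sign of RNA or cDNA shortening, was 4.74 to 5.25 in mutator HSC and 4.24 to 5.26 in mid-aged WT HSC, against 2.20 to 2.27 in old and 2.39 to 2.61 in young HSC, and 2.11 to 3.85 in the CLP. Young replicates 2 and 3 resembled each other more than any other replicates did (r = 0.9959 across genes) but were not identical. The 10 HSC markers lay above the 40th percentile of the array on every HSC array, and the 9 CLP markers did so on every CLP array. This threshold does not separate the cells, since 7 to 9 HSC markers passed it on CLP arrays and 4 to 7 CLP markers on HSC arrays. As mean log2(intensity + 16), HSC markers were at least 9.27 on HSC arrays and at most 6.61 on CLP arrays. CLP markers were at least 8.52 on CLP arrays and at most 5.79 on HSC arrays. The Polg transcript itself was at 65.9, 125 and 110 in the mutator arrays and at 113, 163 and 153 in the mid-aged WT arrays, and an allele that alters only proofreading is not checked by it.

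Promoters of the members that carry the ageing result are shown first, because the S phase and mitosis genes differ in the elements they hold. The RefSeq table (GRCm38.p6) gave a promoter, 250 bases before to 50 bases after the gene start, for 35 of the 42 members, and Ercc6l is among the genes named only. The CHR was searched as TTTGAA, the CCAAT box as CCAAT, and the E2F core as TTCCCGC or TTGGCGC or TTCGCGC or TTGCCGC, all on both strands. The E2F core TTGGCGC, read from the other strand, can share letters with a CCAAT box. For 6 of the 7 genes that were lower in old HSC, the 150 bases before the start are printed on the strand of the gene, with motif matches in capitals on either strand.
Cdca8: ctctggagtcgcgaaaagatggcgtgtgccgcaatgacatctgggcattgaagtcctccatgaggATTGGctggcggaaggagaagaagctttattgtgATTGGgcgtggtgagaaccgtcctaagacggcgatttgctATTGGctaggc
Cdca5: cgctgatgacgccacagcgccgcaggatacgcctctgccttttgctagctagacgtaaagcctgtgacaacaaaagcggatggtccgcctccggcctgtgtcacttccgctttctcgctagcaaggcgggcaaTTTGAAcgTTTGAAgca
Asf1b: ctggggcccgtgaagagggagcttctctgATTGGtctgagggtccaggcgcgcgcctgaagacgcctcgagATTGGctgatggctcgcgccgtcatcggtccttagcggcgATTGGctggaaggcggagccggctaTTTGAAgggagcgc
Pclaf: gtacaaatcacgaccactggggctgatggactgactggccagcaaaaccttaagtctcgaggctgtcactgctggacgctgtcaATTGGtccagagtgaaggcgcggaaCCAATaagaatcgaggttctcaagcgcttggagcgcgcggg
Cdt1: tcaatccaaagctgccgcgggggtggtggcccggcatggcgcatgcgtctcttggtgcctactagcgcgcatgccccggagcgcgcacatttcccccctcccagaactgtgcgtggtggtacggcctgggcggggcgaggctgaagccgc
Mcm5: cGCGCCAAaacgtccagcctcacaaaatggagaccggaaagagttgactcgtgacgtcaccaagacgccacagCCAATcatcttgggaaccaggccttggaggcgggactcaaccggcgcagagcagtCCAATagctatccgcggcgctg

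Cdca8 lies on the minus strand at chr4:124936918-124937067 and the other 5 on the plus strand, Cdca5 at chr19:6084947-6085096, Asf1b at chr8:83955544-83955693, Pclaf at chr9:65890173-65890322, Cdt1 at chr8:122567865-122568014 and Mcm5 at chr8:75109359-75109508. ATTGG is the CCAAT box read from the other strand, and GCGCCAA is the E2F core TTGGCGC read the same way. Cdca8 held 3 CCAAT boxes in this window, Cdca5 held 2 CHR motifs close to the start, and Asf1b held 3 CCAAT boxes together with a CHR at position -14, counted back from the gene start. Pclaf held 2 CCAAT boxes, Mcm5 held 2 CCAAT boxes and an E2F core, and Cdt1 held none of these letters in the window shown. Further upstream or past the start, within the 300 bases searched, Cdca8 also held a CHR, and Cdca5, Pclaf and Cdt1 an E2F core.

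Over the whole 300-base promoters, a CHR was present in 15 of 20 mitosis members (75.0%) and in 2 of 15 S phase members (13.3%), which were Mcm2 and Asf1b, against 14.4% of the 10881 tested genes with a promoter. Both a CHR and a CCAAT box were present in 14 of 20 mitosis members (70.0%), 2 of 15 S phase members (13.3%) and 6.89% of the tested genes. The E2F core was present in 9 of 15 S phase members (60%), 3 of 20 mitosis members (15.0%) and 18.4% of the tested genes. A CCAAT box alone was common to both sets, in 16 of 20 mitosis members and 10 of 15 S phase members, against 42.1% of the tested genes. These matches describe letters in a window and were not read as binding.

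**Figure D1:**
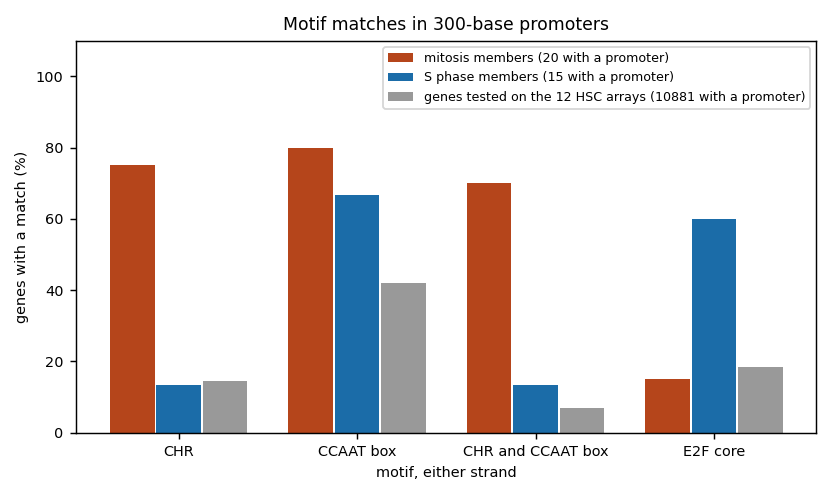
The bars give the percentage of genes whose 300-base promoter holds each motif on either strand, for mitosis members, S phase members and all tested genes with a promoter. The CHR stands at 75.0% in mitosis members and 13.3% in S phase members, and the E2F core at 15.0% and 60%.

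Across the 6 groups the members were highest in CLP and lowest in old HSC. By group mean on the log2 scale, 29 of the 42 members were highest in Ly6D+ CLP, 8 in Ly6D- CLP, 4 in young HSC and 1 in mutator HSC, while 30 were lowest in old HSC, 8 in mid-aged WT HSC and 4 in mutator HSC. Among the 4 HSC groups, 28 members were highest in young HSC and 30 were lowest in old HSC. Without mid-aged WT replicate 3, 5 members were lowest in mid-aged WT HSC and 7 in mutator HSC, 28 were highest in Ly6D+ CLP, and old HSC still held the lowest mean for 30. No member was lowest in young HSC or in either CLP group. The lowest group differed between the sets: old HSC held the lowest mean for 21 of 25 mitosis members but for 9 of 17 S phase members, and mid-aged WT HSC did so for 6 S phase members, which were Cdc6, Mcm3, Mcm7, Pcna, Rrm2 and Tk1 (4 S phase members without mid-aged WT replicate 3).

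**Figure D2:**
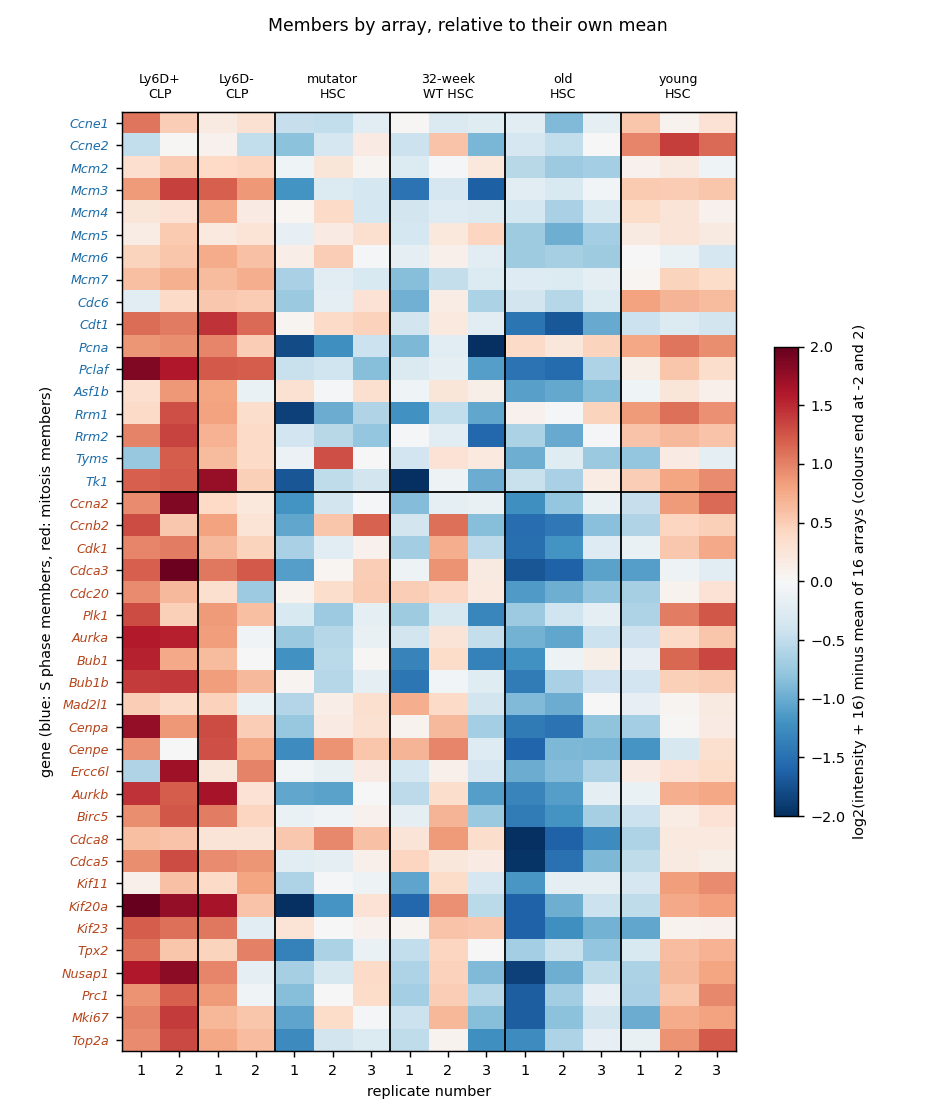
Each row is a member and each column an array, and the colour gives log2(intensity + 16) minus the mean of that gene over 16 arrays, from blue (lower) to red (higher), with mid-aged WT HSC drawn as 32-week WT HSC. CLP columns are mostly red, old HSC columns mostly blue, and young replicate 1 is bluer than the other young arrays in the mitosis rows below the line.

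The mean of the 17 S phase members, as log2(intensity + 16), was 10.07 and 10.39 in Ly6D+ CLP, 10.31 and 9.99 in Ly6D- CLP, 8.96, 9.41 and 9.39 in mutator HSC and 8.93, 9.49 and 8.91 in mid-aged WT HSC. The same mean was 8.99, 8.87 and 9.23 in old HSC and 9.84, 10.01 and 9.90 in young HSC. All 3 young arrays therefore lay above all 9 other HSC arrays for the S phase set. The mean of the 25 mitosis members was 9.73 and 9.75 in Ly6D+ CLP, 9.47 and 9.04 in Ly6D- CLP, 7.97, 8.52 and 8.84 in mutator HSC and 8.28, 9.12 and 8.21 in mid-aged WT HSC. It was 7.28, 7.71 and 8.14 in old HSC and 8.15, 9.11 and 9.25 in young HSC. For the mitosis set the lowest young array lay just above the highest old array, inside the range of the mutator arrays and just below that of the mid-aged WT arrays.

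In the HSC groups and in Ly6D- CLP the mitosis genes varied more between replicates than the S phase genes did. The median SD over arrays, on the log2 scale, was 0.52 for mitosis members and 0.19 for S phase members in old HSC, and 0.56 and 0.15 in young HSC. In Ly6D- CLP the medians were 0.40 for mitosis and 0.22 for S phase members, and in Ly6D+ CLP both were 0.26. The variation was shared by the members: young replicate 1 was the lowest of its group for 25 of 25 mitosis members, old replicate 1 was the lowest for 21 and old replicate 3 the highest for 22. The same young array was the lowest for 9 of 17 S phase members. Mki67, which coats mitotic chromosomes, was at 612, 1093 and 1501 in old HSC and at 972, 3265 and 3418 in young HSC. Top2a, which untangles sister chromatids, was at 703, 1107 and 1520.2 in old HSC and at 1530.0, 3183 and 4037 in young HSC. Young replicate 1 lay just above the highest old array for Top2a and among the old arrays for Mki67.

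**Figure D3:**
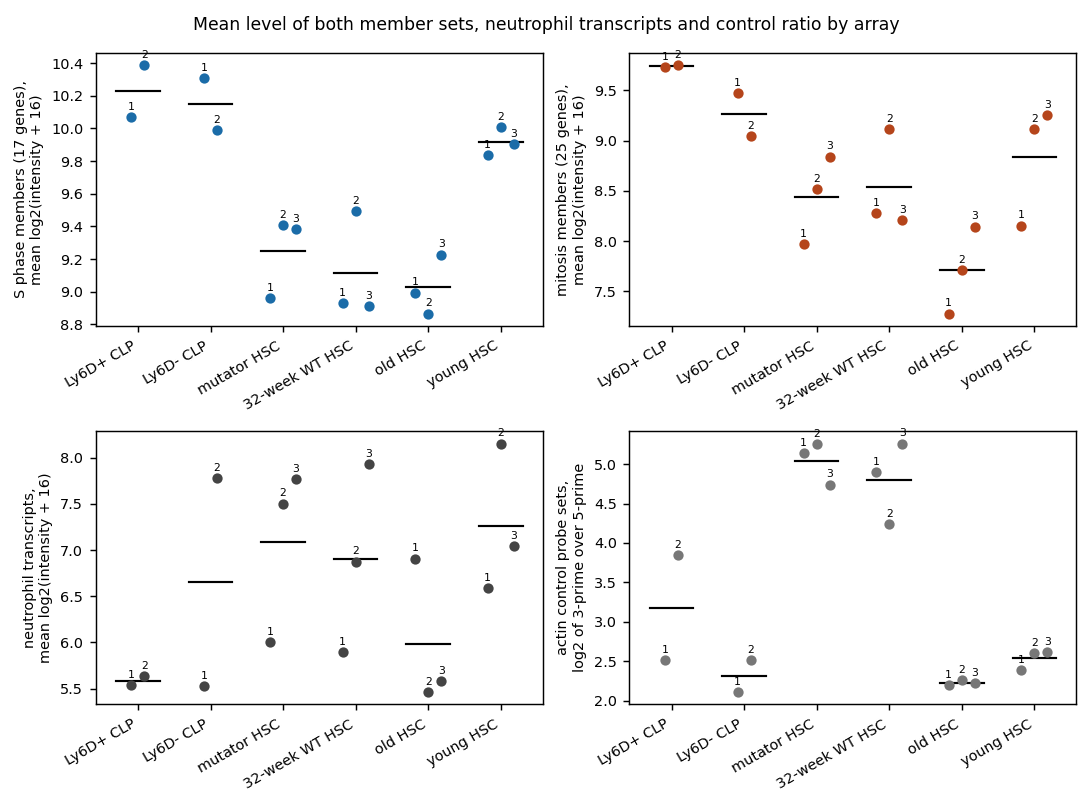
Points are arrays, labelled by replicate number, and bars are group means of the S phase members, the mitosis members and 13 neutrophil transcripts, each as mean log2(intensity + 16), and of the log2 actin 3-prime over 5-prime ratio. The 3 young arrays are above all other HSC arrays for the S phase members, young replicate 1 is the low young array for the mitosis members, and the actin ratio is high in the mutator and mid-aged WT arrays.

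Part of this programme was lower in old HSC. In old against young HSC, 7 of the 42 members were lower and 0 were higher at an adjusted p under 0.05 in limma, against 0.252% of the 13482 tested genes lower, 1.05% higher and 1.31% in either direction. The change was negative for 42 of 42 members, against 6982 of 13482 tested genes, with a median log2 change of -0.79 over the S phase members, -1.10 over the mitosis members and -0.01 over all genes tested. An unadjusted p under 0.05 was reached by 34 of 42 members, against 9.03% of all genes tested. The old and young arrays did not overlap for 16 of 17 S phase members and 13 of 25 mitosis members, all lower in old HSC, against 13.2% of the tested genes.

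Among the origin licensing genes, which load and form the replicative helicase before S phase, 2 of 8 were lower in old HSC. Cdt1, a loader of the helicase, was at 886, 756 and 1223 in old HSC and at 1839.9, 2052 and 1929.8 in young HSC, so that every old array lay below every young one. Its log2 change was -1.04 ± 0.21 (SE, adjusted p = 0.0340). Mcm5, a helicase subunit, was at 1418, 1180.2 and 1444 in old HSC and at 2640.3, 2789.6 and 2637 in young HSC, with a log2 change of -0.99 ± 0.20 (adjusted p = 0.0403). The spread within either group was small beside this gap. The other 6 genes had log2 changes between -1.11 for Cdc6 and -0.53 for Mcm7 and did not pass, although all 6 had old arrays below all young arrays. Mcm2, the nearest to the threshold, was at 1124, 993 and 1032 in old HSC and at 1759.7, 1877 and 1568 in young HSC (log2 change -0.71, adjusted p = 0.0564).

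Of the 3 genes of the replication fork and chromatin assembly, 2 were lower. Pclaf, a partner of the sliding clamp, was at 103, 98.2 and 201 in old HSC and at 345, 473 and 408 in young HSC, a log2 change of -1.55 ± 0.29 (adjusted p = 0.0236). Asf1b, a chaperone that hands histones to newly copied DNA, was at 171, 179 and 205 in old HSC and at 357, 455 and 412 in young HSC, a log2 change of -1.07 ± 0.16 (adjusted p = 0.00512). The highest old value of Asf1b was well under its lowest young value. Pcna, the sliding clamp itself, was at 3047, 2734 and 3158 in old HSC and at 3968, 4901 and 4459.6 in young HSC (log2 change -0.57, adjusted p = 0.9996), with no overlap of the arrays but no call.

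The genes of S phase entry and of nucleotide supply did not pass. Ccne2, a cyclin that activates Cdk2 at the start of S phase, was at 96.7, 85.5 and 125 in old HSC and at 263, 353 and 295 in young HSC (log2 change -1.44, adjusted p = 0.0787), and its relative Ccne1 had a log2 change of -0.74 (adjusted p = 0.165). Rrm1 and Rrm2, the subunits of ribonucleotide reductase, had log2 changes of -0.79 and -1.16. Tk1, the thymidine kinase of the salvage route, had -1.05. For Ccne2, Rrm1, Rrm2 and Tk1 the old arrays lay below the young arrays without overlap. Tyms, thymidylate synthase, was the dimmest member, at 10.2 to 27.5 in old HSC and 14.0 to 41.3 in young HSC, and its groups overlapped (log2 change -0.39).

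Of the 25 mitosis members, 3 were lower in old HSC. Cdca8, the borealin subunit of the chromosomal passenger complex that corrects kinetochore attachments, was at 352, 505 and 653 in old HSC and at 1027, 1806 and 1814 in young HSC, the largest log2 change of the members called (-1.59 ± 0.28, adjusted p = 0.0148). Cdca5, or sororin, which protects sister chromatid cohesion, was at 229.9, 322 and 496 in old HSC and at 656, 1061 and 1013 in young HSC (-1.38 ± 0.26, adjusted p = 0.0244). Both belong to the chromosomal passenger and cohesion genes, and the other 2 members of that group, Aurkb and Birc5, had log2 changes of -1.32 and -1.09 without passing. Ercc6l, a DNA translocase found on threads of DNA between separating chromosomes, was at 86.0, 95.1 and 116 in old HSC and at 212, 231 and 245 in young HSC (-1.10 ± 0.17, adjusted p = 0.00697). Unlike the mitosis set as a whole, Ercc6l had young arrays close to each other.

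No other group of mitosis genes had a called member. The 4 mitotic cyclins and Cdk1 partners (Ccna2, Ccnb2, Cdk1 and Cdca3) had log2 changes between -1.38 and -0.99, and the kinases and anaphase promoter (Plk1, Aurka and Cdc20) between -0.99 and -0.87. Cdk1, the kinase that drives entry into mitosis, was at 139, 177 and 355 in old HSC and at 389.9, 632 and 736 in young HSC (log2 change -1.38, adjusted p = 0.198). The 6 spindle and cytokinesis genes (Kif11, Kif20a, Kif23, Tpx2, Nusap1 and Prc1) had log2 changes between -1.39 for Nusap1 and -0.97 for Tpx2, with the smallest adjusted p at 0.199. Among the kinetochore and checkpoint genes beside Ercc6l, Bub1, Bub1b and Cenpa had log2 changes of -1.18, -1.02 and -1.07, and Mad2l1 and Cenpe -0.65 and -0.74. Several of these changes were larger than those of Asf1b or Mcm5, and their SE was also larger, from 0.23 for Cdc20 to 0.69 for Kif20a.

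**Figure D4:**
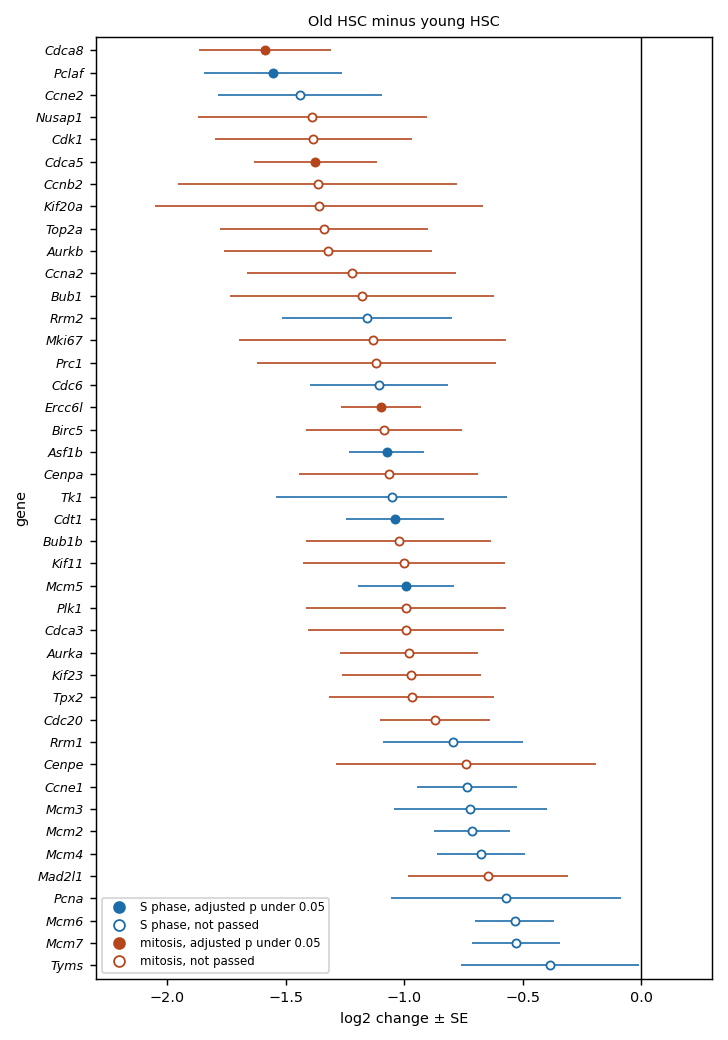
Points give the log2 change of old minus young HSC with its SE for each of the 42 members, filled where the adjusted p was under 0.05. All 42 points are below 0, from -1.59 for Cdca8 to -0.39 for Tyms, and 7 are filled.

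The calls depended on which arrays entered the fit. With only the old and young arrays in the fit, 21 members were called, beside 994 of the 13482 tested genes. Asf1b and Ercc6l were called in 6 of 6 fits that left out 1 old or young array, with adjusted p up to 0.0420 and 0.0468. The number of members called was 2 without old replicate 1, old replicate 2, young replicate 2 or young replicate 3, was 6 without old replicate 3 and was 7 without young replicate 1. Cdca8 and Cdca5 were lost in the first 4 of these fits (adjusted p up to 0.0967 and 0.139), Pclaf and Cdt1 in those 4 and without young replicate 1 (up to 0.135 and 0.165), and Mcm5 in all 6 (0.0975 to 0.172). The mitosis median moved to -1.57 without young replicate 1, against -1.10 with it, and the sign of every called member stayed negative in all alternatives run.

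Markers of other cells were set beside these results. Over all genes tested, 0.252% were called lower and 1.05% higher in old HSC, and 13.2% had old arrays below all young arrays. The 13 neutrophil transcripts summed to 1696 to 3477 in old HSC and 3304 to 8555 in young HSC, with 8 to 11 and 10 to 11 of them above the 40th percentile of the array. These sums overlapped. Of 11 neutrophil transcripts tested, 0 were called, 2 had old arrays below all young arrays and 1 had them above. The neutrophil granule transcript S100a8 was at 322, 41.9 and 24.1 in old HSC and at 508, 1939.5 and 567 in young HSC, and none of the list was at 0. The 11 macrophage transcripts summed to 307 to 360 in old HSC and 548 to 1120 in young HSC, with 1 of 10 tested lower. Of 8 erythroid transcripts tested, 0 were called and 6 had old arrays below all young arrays, with a median change of -0.62, although their sum was 6512 to 8227 in old HSC and 5336 to 6558 in young HSC. The HSC markers moved the other way, with 3 of 10 higher in old HSC. None of these lists held a member, and their part in the lower cell cycle transcripts was not tested.

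The wider replication and mitosis machinery had negative changes without calls. Of 38 other replication genes 38 had a negative change in old HSC and 0 were called, with a median of -0.71. Of 60 other mitosis genes 58 had a negative change and 0 were called, with a median of -0.93. An unadjusted p under 0.05 was reached by 23 of the replication genes and 36 of the mitosis genes, in limma. The E2F, DREAM, B-Myb and FoxM1 regulators differed less, with 15 of 19 negative, 0 called, 4 at an unadjusted p under 0.05 and a median of -0.19.

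No member passed the test in mutator HSC. In mutator against mid-aged WT HSC, 0 of 42 members were called in limma, as were 0% of all genes tested, and 0 of 42 members reached an unadjusted p under 0.05, against 7.30% of the tested genes. The changes were positive for 23 members and negative for 19, with medians of 0.10 for S phase and -0.09 for mitosis members. The groups did not overlap for 1 member, Cdca5, which had lower values in mutator HSC (log2 change -0.37, adjusted p = 0.826), and no member had non-overlapping higher values, against 2.97% of the tested genes lower and 3.11% higher. The members with the smallest p were Cdt1 (log2 change 0.43, adjusted p = 0.694), Tpx2, an activator of the Aurora A kinase (-0.69, adjusted p = 0.713), and Mcm6 (0.30, adjusted p = 0.769). Cdt1 was at 2566, 3252 and 3425 in mutator HSC and at 1909.6, 2837 and 2139 in mid-aged WT HSC, and the groups overlapped. Tpx2 was at 78.9, 141 and 206 in mutator HSC and at 157, 312 and 227 in mid-aged WT HSC, also with overlap.

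These arrays could not show small changes. The 95% intervals of the 42 log2 changes reached from -2.14 (Kif20a) at the low end to 1.56 (Ccnb2) at the high end, and the estimate of the change seen with age lay inside this interval for 6 of 25 mitosis members (Cdca3, Cenpe, Kif20a, Mad2l1, Mki67 and Tpx2) and 3 of 17 S phase members (Pcna, Rrm1 and Tyms). These counts take the age estimate as a fixed value and leave out its own SE. They therefore do not show that the 2 changes differ for the remaining members, which the contrast below tests. For Asf1b the interval was -0.24 to 0.45 and for Ercc6l -0.18 to 0.56, both narrower and both above the change seen in old HSC. No member was called in any of the 6 fits that left out 1 array, including the fit without mid-aged WT replicate 3, in which the medians were 0.19 for S phase and -0.28 for mitosis members. Without mid-aged WT replicate 2 the medians were 0.34 and 0.22, so the sign of the mitosis median turned with 1 array, and 222 of the 13482 tested genes were called although 0 members were. Among the lists of other replication genes, other mitosis genes and regulators, 0 of 38, 0 of 60 and 0 of 19 were called, and 3, 1 and 1 had an unadjusted p under 0.05.

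The difference between the mutator effect and the age effect was tested as a single contrast, since both come from HSC and the title of the series sets them side by side. The difference was positive for 42 of 42 members, meaning a less negative change with the mutator genotype than with age, and 2 were called higher and 0 lower, against 0.0519% of all genes tested called higher and 0.460% lower. Ercc6l differed by 1.29 ± 0.24 on the log2 scale (adjusted p = 0.0404) and Asf1b by 1.18 ± 0.22 (adjusted p = 0.0463). Asf1b was at 474, 375 and 479 in mutator HSC and at 359, 454 and 418 in mid-aged WT HSC, and Ercc6l at 180.1, 167 and 212 in mutator HSC and at 142, 201 and 144 in mid-aged WT HSC. Cdt1 came next with 1.47 ± 0.29 (adjusted p = 0.0584) and Cdca8 with 1.80 ± 0.39 (adjusted p = 0.0842). An unadjusted p under 0.05 was reached by 20 of 42 members, against 7.74% of the tested genes. These were 12 of 17 S phase and 8 of 25 mitosis members.

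Both calls were close to the threshold. Each was kept in 2 of 12 fits that left out 1 array, those without mid-aged WT replicate 1 or replicate 2, and lost in the other 10, with adjusted p up to 0.167 for Asf1b and 0.147 for Ercc6l. Without mid-aged WT replicate 3 the count was 0, and without mid-aged WT replicate 2 it was 5. The actin ratio was higher in both mid-aged groups than in old and young HSC, and the old and young arrays did not overlap in it either (2.20 to 2.27 in old HSC, 2.39 to 2.61 in young HSC). Its part in the difference was not tested.

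Most of the members called lower at 32 weeks act in S phase. In mid-aged WT against young HSC, 10 of 42 members were lower and 0 higher, against 17.7% of all genes tested lower and 6.42% higher. Of these 10, 9 were among the 17 S phase members and 1, Plk1, among the 25 mitosis members, and the medians were -0.82 and -0.39. With quantile normalization 8 members were lower and 3 higher (Cdc20, Cdca8 and Kif23), and with the mean of all probe sets 14 were lower and 1 higher (Cenpa), so the absence of higher members depended on these choices. Of the 4 nucleotide supply genes, 3 were lower. Rrm1 was at 275, 461 and 311 in mid-aged WT HSC and at 1199.9, 1419 and 1251 in young HSC (log2 change -1.87 ± 0.29, adjusted p = 0.00149). Rrm2 was at 1220.2, 1069.9 and 405 in mid-aged WT HSC and at 1855, 1942 and 1845 in young HSC (-1.197 ± 0.36, adjusted p = 0.0312). Tk1 was at 48.3, 269 and 139 in mid-aged WT HSC and at 414, 514 and 579 in young HSC (-1.86 ± 0.49, adjusted p = 0.0178). All 3 had mid-aged arrays below every young array.

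Pcna had the largest change, at 1245, 1978 and 389 in mid-aged WT HSC and 3968, 4901 and 4459.6 in young HSC (log2 change -2.14 ± 0.48, adjusted p = 0.00868), and Pclaf fell by less (-0.87 ± 0.29, adjusted p = 0.0494). Of the licensing genes, Mcm3 (-1.67 ± 0.32, adjusted p = 0.00390), Cdc6 (-1.18 ± 0.29, adjusted p = 0.0130) and Mcm7 (-0.82 ± 0.18, adjusted p = 0.00872) were lower, whereas Mcm2, Mcm5, Mcm6 and Cdt1 ranged in log2 change from -0.10 for Mcm5 to 0.22 for Cdt1. The remaining licensing gene, Mcm4, was at 1485, 1597 and 1562 in mid-aged WT HSC and at 2484, 2312 and 2043 in young HSC. Its mid-aged arrays lay below all young arrays, but it did not pass. Mcm3 was at 225, 516 and 199.96 in mid-aged WT HSC and at 943, 939 and 967 in young HSC. The cyclin Ccne2 was lower too (-1.42 ± 0.35, adjusted p = 0.0126). Plk1, a kinase of mitotic entry and spindle assembly, was at 71.6, 98.0 and 41.7 in mid-aged WT HSC and at 77.5, 273 and 323 in young HSC (-1.33 ± 0.42, adjusted p = 0.0402), with young replicate 1 inside the mid-aged range. Asf1b and Cdca8, which were lower with age, had log2 changes of 0.01 and 0.56 here and did not pass.

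The mid-aged and young arrays differed in more than the labelled age. The actin ratio was 4.24 to 5.26 in mid-aged WT HSC and 2.39 to 2.61 in young HSC, and probe sets of the same gene gave different answers. Of 22 members with several probe sets above the 40th percentile on all 16 arrays, 7 had probe sets whose changes differed in sign, and the median range between probe sets of a gene was 0.996 on the log2 scale. In old against young HSC the same 22 genes had 0 such disagreements and a median range of 0.27. Signs also differed for 7 of these genes in Ly6D- CLP and 1 in Ly6D+ CLP against young HSC (median ranges 0.42 and 0.29). They differed for 8 between the CLP fractions (0.32) and for 4 in mutator against mid-aged WT HSC (0.19). The CLP results therefore share this limit, although the median range was largest in mid-aged WT against young HSC. The 4 probe sets of Mcm7 spanned log2 changes of -3.89 to -0.43, and the 5 probe sets of Mcm3 spanned -2.33 to 0.13. The part of RNA or cDNA length in these changes was not tested. The count was 7 without mid-aged WT replicate 3, 5 without young replicate 2 and 6 without young replicate 3, and Mcm3, Mcm7, Cdc6, Pcna and Rrm1 were called in 6 of 6 such fits. Without mid-aged WT replicate 3, Rrm2, Pclaf and Plk1 lost their calls (adjusted p up to 0.0870, 0.164 and 0.160 over the fits that left out 1 array). Rrm2 and Pclaf also lost them without any 1 of the young arrays, and Plk1 without young replicate 2 or young replicate 3. Pclaf and Plk1 did so without mid-aged WT replicate 1 too. Rrm2 and Plk1 were thus called in 2 of 6 such fits and Pclaf in 1 of 6. Tk1 lost its call without young replicate 2 or young replicate 3, and Ccne2 without young replicate 2 (adjusted p up to 0.0638 and 0.0517). The S phase median was -0.59 and the mitosis median -0.35 without mid-aged WT replicate 3. The mitosis median was -0.72 without mid-aged WT replicate 2 and -0.18 without young replicate 3. The probe sets of 7 of the 22 genes also differed in sign without mid-aged WT replicate 3.

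Of the other replication genes, 8 of 38 were lower and 1 higher in mid-aged WT HSC, with a median of -0.44. Dut, which clears dUTP, and Cdc7 and Timeless, which act in origin firing and fork protection, had log2 changes of -2.62 (adjusted p = 0.00246), -1.71 (adjusted p = 0.0135) and -1.68 (adjusted p = 0.00245), whereas the polymerase subunit gene Pold1 was higher by 1.16 (adjusted p = 0.00171). Of the other mitosis genes, 5 of 60 were lower and 2 higher, with a median of -0.16. Of the regulators, 3 of 19 were lower, namely the pocket protein gene Rbl2 (-2.46, adjusted p = 0.00161), Tfdp1, the partner of E2F proteins (-1.37, adjusted p = 0.00419), and E2f3 (-1.09, adjusted p = 0.00820). These counts stand beside 24.2% of all genes called in either direction. Without mid-aged WT replicate 3, 4 replication genes were lower and 2 higher, 1 mitosis gene was lower and 2 higher, and 4 regulators were lower. Cdc7 lost its call in that fit (adjusted p = 0.0517), while Dut, Timeless, Pold1, Rbl2, Tfdp1 and E2f3 were called.

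In CLP the share of members called higher was above that of all genes for the Ly6D+ fraction and near it for the Ly6D- fraction. In Ly6D+ CLP against young HSC, 10 of 42 members were higher and 1 lower, against 10.4% of the 14344 tested genes higher and 13.9% lower. The medians were 0.47 for S phase and 0.88 for mitosis members, against 0.01 for all genes tested, and 16 of 25 mitosis members had Ly6D+ arrays above all young arrays, against 28.4% of the tested genes. The largest change was that of Cdca3, an adaptor for the degradation of an inhibitor of mitotic entry, at 575 and 988 in Ly6D+ CLP and 104, 224 and 208 in young HSC (log2 change 2.05 ± 0.45, adjusted p = 0.00511). Cenpa, the histone variant of centromeres, was at 983 and 523 in Ly6D+ CLP and at 168, 286 and 315 in young HSC (1.48 ± 0.45, adjusted p = 0.0289). Kif23, a motor of the cleavage furrow, was at 1153 and 1060.3 in Ly6D+ CLP and at 229.9, 514 and 516 in young HSC (1.45 ± 0.38, adjusted p = 0.0143). In each of these genes both Ly6D+ arrays lay above all 3 young arrays.

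Aurka, a kinase of spindle poles, was at 502 and 488 in Ly6D+ CLP and at 112, 208 and 237 in young HSC (1.40 ± 0.34, adjusted p = 0.00957). Cdca5 rose by 1.19 ± 0.28 (adjusted p = 0.00708), the checkpoint kinase gene Bub1b by 1.204 ± 0.41 (adjusted p = 0.0479) and Birc5, or survivin, by 1.08 ± 0.36 (adjusted p = 0.0450). Among S phase members, Cdt1 was at 5399 and 5125 in Ly6D+ CLP and at 1839.9, 2052 and 1929.8 in young HSC (1.43 ± 0.22, adjusted p = 0.000418), Pclaf was at 1178 and 993 in Ly6D+ CLP and at 345, 473 and 408 in young HSC (1.38 ± 0.31, adjusted p = 0.00523), and Mcm6 was higher by 0.66 ± 0.18 (adjusted p = 0.0159). Of the 5 members with a negative change, Ccne2 was the one called, at 84.9 and 129 in Ly6D+ CLP and at 263, 353 and 295 in young HSC (-1.39 ± 0.39, adjusted p = 0.0185). Its relative Ccne1 had a log2 change of 0.48 (adjusted p = 0.177).

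In Ly6D- CLP against young HSC, 4 members were higher and 1 lower, against 9.55% of the tested genes higher and 14.9% lower, with medians of 0.25 for S phase and 0.34 for mitosis members. The share of members called higher was near that of all genes, and the share called lower was smaller. The S phase median was -0.00 without Ly6D- replicate 1, and the mitosis median 0.07 without young replicate 1. Cdt1 was at 6751 and 5454 in Ly6D- CLP, against 1839.9, 2052 and 1929.8 in young HSC, the largest change (1.64 ± 0.22, adjusted p = 0.000180). Cdca3 was at 521 and 589 in Ly6D- CLP, against 104, 224 and 208 in young HSC (1.61 ± 0.45, adjusted p = 0.0199). Cdca5 was higher by 0.99 ± 0.28 (adjusted p = 0.0198) and Mcm6 by 0.82 ± 0.18 (adjusted p = 0.00446). Ccne2 was at 135 and 84.5 in Ly6D- CLP, against 263, 353 and 295 in young HSC (-1.37 ± 0.39, adjusted p = 0.0207). Ly6D- arrays lay above all young arrays for 14 members and below them for 3, against 26.6% and 31.0% of the tested genes. The comparisons of both CLP fractions share the young arrays.

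**Figure D5:**
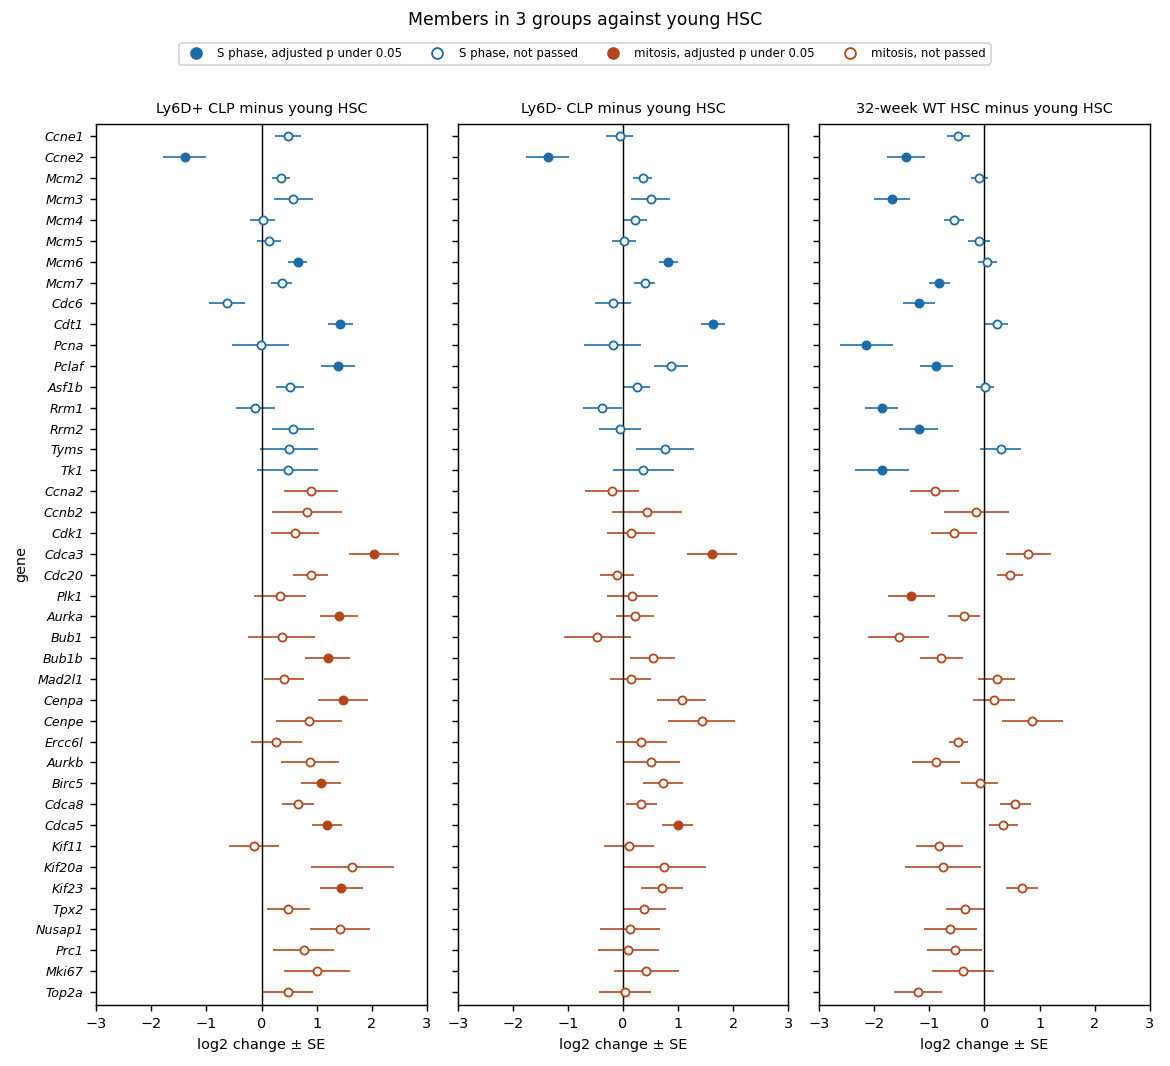
Points give the log2 change with its SE for each member in Ly6D+ CLP, Ly6D- CLP and mid-aged WT HSC (drawn as 32-week WT HSC), each minus young HSC, filled where the adjusted p was under 0.05. Most mitosis points of Ly6D+ CLP are above 0 with 7 filled, and most S phase points of mid-aged WT HSC are below 0 with 9 filled.

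Leaving out arrays changed several of these calls. In Ly6D+ CLP the count was 7 without young replicate 1 or young replicate 2, 9 without young replicate 3, 6 without Ly6D+ replicate 1 and 5 without Ly6D+ replicate 2. Cdt1 and Pclaf were called in 5 of 5 such fits, whereas Bub1b and Birc5 were called in 0 of 5 (adjusted p up to 0.159 and 0.208). Cdca3, Cdca5, Kif23 and Mcm6 lost their calls without Ly6D+ replicate 2, and Aurka, Cenpa, Kif23 and Ccne2 without Ly6D+ replicate 1. Cenpa also lost its call without young replicate 1 or young replicate 2, and Kif23 without young replicate 1. Mcm6 lost its call without young replicate 3 too, and Ccne2 without young replicate 2. The mitosis median was 0.47 without young replicate 1. In Ly6D- CLP the count was 3 without young replicate 1 or either Ly6D- array, and Cdt1 and Mcm6 were called in 5 of 5 fits. Cdca3 and Cdca5 were lost in those 3 fits (adjusted p up to 0.106 and 0.0832), and Ccne2 without young replicate 2 or Ly6D- replicate 2 (up to 0.169). In these fits a lone CLP array was assumed to vary like the other groups. All CLP arrays had the male pattern of Xist and Eif2s3y and all young arrays the female one, so sex and cell type cannot be told apart here.

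No member passed the test between the CLP fractions. In Ly6D+ against Ly6D- CLP, 0 of 42 were called in limma, against 1.49% of the tested genes higher, 1.19% lower and 2.68% in either direction, and 3 of 42 had an unadjusted p under 0.05, against 13.0%. These 3 were Aurka, Cdc20 and Nusap1. Aurka was at 502 and 488 in Ly6D+ CLP and at 292 and 148 in Ly6D- CLP (log2 change 1.18, 95% interval 0.37 to 1.999, adjusted p = 0.146). Cdc20, the activator of the anaphase promoting complex, was at 3192 and 2596 in Ly6D+ CLP and at 2078 and 993 in Ly6D- CLP (0.99, 95% interval 0.26 to 1.73, adjusted p = 0.181). Nusap1, a spindle microtubule protein, was at 1352 and 1541 in Ly6D+ CLP and at 875 and 382 in Ly6D- CLP (1.29, adjusted p = 0.386). All 3 genes had both Ly6D+ arrays above both Ly6D- arrays.

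For 22 of 25 mitosis members the change between the fractions was positive, with a median of 0.43, and for 10 of 17 S phase members, with a median of 0.08. The Ly6D- arrays differed from each other, with replicate 1 the higher one for 21 of 25 mitosis members, and 2 members were called without that array. Neutrophil transcripts summed to 1263 and 1146 in Ly6D+ CLP and to 1096 and 5764 in Ly6D- CLP, and the high array was Ly6D- replicate 2. Of the lists of other replication genes, other mitosis genes and regulators, 3 genes were higher in Ly6D+ CLP, the regulators Mybl2 (1.48, adjusted p = 0.0317) and E2f2 (1.23, adjusted p = 0.0192), of which Mybl2 encodes B-Myb, and the mitosis gene Gtse1 (1.14, adjusted p = 0.0324). These were 2 of 19 regulators and 1 of 60 other mitosis genes.

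The other lists also held genes that were higher in CLP than in young HSC. In Ly6D+ CLP the counts below stand beside 10.4% of all genes tested higher and 13.9% lower. In Ly6D+ CLP, 16 of 60 other mitosis genes were higher and 0 lower (median 0.75), led by Espl1, or separase (2.07, adjusted p = 0.00730), Cdc25c (2.05, adjusted p = 0.0174) and Ube2c (2.05, adjusted p = 0.0219). Of 38 other replication genes 10 were higher and 1 lower (median 0.39), with Pold1 at 1.62 (adjusted p = 8.75e-05). Of the regulators, Mybl2 (2.19, adjusted p = 0.000162), E2f2 (1.37, adjusted p = 0.000702) and Foxm1 (1.21, adjusted p = 0.000609) were higher, and Rbl2 (-1.96, adjusted p = 0.0151) and E2f6 (-1.30, adjusted p = 0.00938) lower. These regulator counts, 3 of 19 higher and 2 of 19 lower, were near the shares over all genes. In Ly6D- CLP, 7 of 60 other mitosis genes, 6 of 38 other replication genes and 1 of 19 regulators, Foxm1 (0.72, adjusted p = 0.0174), were higher and 0 lower, beside 9.55% of all genes higher. The mitosis and regulator counts of Ly6D- CLP were thus near or below the share over all genes.

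Set against mid-aged WT HSC instead, the CLP were higher for more members. The mean of both CLP fractions was higher for 25 of 42 members and lower for 0, against 15.8% of all genes tested higher and 12.2% lower. Of these, 13 were among the 17 S phase and 12 among the 25 mitosis members, with medians of 0.78 and 0.99. Without mid-aged WT replicate 3, 11 of 17 S phase but only 3 of 25 mitosis members were called higher. The mitosis share was then 12.0%, near the 13.7% of all genes tested. Tk1 was at 687 and 707 in Ly6D+ CLP and at 1014 and 412 in Ly6D- CLP, against 48.3, 269 and 139 in mid-aged WT HSC (log2 change 2.28 ± 0.47, adjusted p = 0.00267). Mcm3 was at 1187 and 1715 in Ly6D+ CLP and at 1514 and 1201 in Ly6D- CLP, against 225, 516 and 199.96 in mid-aged WT HSC (2.21 ± 0.30, adjusted p = 0.000110). In both genes the lowest CLP array lay above the highest mid-aged array. Pcna (2.04 ± 0.43, adjusted p = 0.00322) and Pclaf (1.999 ± 0.26, adjusted p = 7.87e-05) were also higher.

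The other called members with the largest changes in this comparison were Kif20a, a motor of cytokinesis (1.95 ± 0.63, adjusted p = 0.0340), Bub1b (1.66 ± 0.34, adjusted p = 0.00284), Rrm1 (1.62 ± 0.30, adjusted p = 0.00124), Plk1 (1.58 ± 0.39, adjusted p = 0.00851), Aurkb, the kinase of the passenger complex (1.57 ± 0.44, adjusted p = 0.0163), and Bub1, a checkpoint kinase (1.51 ± 0.51, adjusted p = 0.0418). Mad2l1, Cdc20, Cdca8 and Ccne2 had log2 changes of 0.05, -0.07, -0.06 and 0.04. The number of members called was 14 without mid-aged WT replicate 3, 15 without Ly6D- replicate 1 and between 17 and 25 in the other 5 fits, and 12 members were called in 7 of 7. Kif20a, Aurkb and Bub1 lost their calls without mid-aged WT replicate 3 or without Ly6D- replicate 1 (adjusted p up to 0.1496, 0.0790 and 0.153 over these fits). Kif20a also lost its call without mid-aged WT replicate 1 or either Ly6D+ array, and Bub1 without mid-aged WT replicate 1 or Ly6D+ replicate 1. The medians without mid-aged WT replicate 3 were 0.71 and 0.80. The actin ratio was 2.11 to 3.85 in the CLP and 4.24 to 5.26 in mid-aged WT HSC, and its part in these differences was not tested. The CLP came from mice of 8 to 12 weeks and the mid-aged WT HSC from mice of 32 weeks, so age and cell type cannot be told apart. All CLP arrays had the male pattern of Xist and Eif2s3y, and of the mid-aged WT arrays only replicate 3 did. Without that array, sex and cell type cannot be told apart either. Of the other lists, 19 of 38 replication genes, 14 of 60 mitosis genes and 6 of 19 regulators were higher and 0 lower, with Timeless (2.94, adjusted p = 5.79e-06) and the mitosis gene Tacc3 (2.22, adjusted p = 0.00176) the largest of those lists. Without mid-aged WT replicate 3 these counts were 16, 12 and 5.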

How the data were processed

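The deposited values are linear intensities, 1 for each of 45101 probe sets on each of 16 arrays of sorted mouse marrow cells, hybridised with RNA from 4000 to 7000 cells each per the labels' protocols. How the authors summarised and normalized them was not given in the sources used here, and all columns were used. Of the probe sets, 34958 have 1 gene symbol, 932 several and 9211 none. Arrays have no read depth, and their number per group limits the precision.

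Values were used as log2(intensity + 16). Each gene was read from its brightest probe set over 16 arrays and tested where it lay above the 40th percentile of the array on at least 3 of 12 HSC arrays (13482 genes) or 2 of 16 arrays (14344 genes), a filter that all 42 measured members passed. A linear model with 1 mean per group was fitted by limma 3.58.1 (R 4.3.3), and p-values were adjusted by Benjamini-Hochberg over all genes tested, with a threshold of 0.05, with 12 arrays for the HSC comparisons and 16 for those with CLP. The p-values measure the spread between arrays within groups, pooled over all groups of the fit, so groups outside a comparison also enter its p-values. The procedure was tested on simulated data. Log2 changes are on the log2(intensity + 16) scale and understate those of dim genes.

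The members, the gene lists and the tests were chosen with earlier results of these data known. Members past the threshold were named, up to 10 each way per comparison, or the 3 of smallest p where fewer than 3 passed, with up to 4 genes per other list. Other genes (Cdca8 and Cdt1 in the difference of effects, Ccne1 beside Ccne2, and examples of members that did not pass) were named after their values were seen. The alternatives were other normalizations, filters, probe set rules, variance models, pseudocounts, arrays in the fit, a replicate block, young replicates 2 and 3 counted as 1, and leaving out each array.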

Additional observations from a re-analysis of the deposited data

Results flagged for a closer look

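The change with the mutator genotype and the change with age differed for 2 members by the test of the difference itself in limma. Asf1b, the histone chaperone, differed by 1.18 on the log2 scale (adjusted p = 0.0463), with a change of 0.10 in mutator against mid-aged WT HSC and -1.07 in old against young HSC. Ercc6l, the DNA translocase of anaphase threads, differed by 1.29 (adjusted p = 0.0404), with changes of 0.19 and -1.10 in the same comparisons. In both genes all 3 old arrays lay below all 3 young arrays, while the mutator and mid-aged WT arrays overlapped. Each call was lost in 10 of 12 fits that left out 1 array, and was kept in 5 of 13 other alternatives.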

How the results depend on the processing

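No called member changed its direction under any alternative run. The count of members called in old against young HSC was 7, and became 4 with the mean of all probe sets, 2 with young replicates 2 and 3 counted as 1, 21 with only the groups compared and 39 with array weights, while the count over all genes was 176, and 994 and 1879 in these last fits. In mid-aged WT against young HSC it was 10, and 6 with young replicates 2 and 3 counted as 1. For the difference of effects it was 2. This count became 0 with median centring, the 60th percentile filter, a pseudocount of 1 or young replicates 2 and 3 counted as 1. It became 1 with the mean of all probe sets, with trend and robust settings or with a replicate block, and 11 with array weights. With array weights it was 3 for Ly6D- CLP (5 in the fit reported), 5 for Ly6D+ CLP (11) and 11 for CLP against mid-aged WT HSC (25), and the last was 13 with only the groups compared. Leaving out each array gave 2 to 7 members in old against young HSC, 0 to 0 in mutator against mid-aged WT HSC, 5 to 14 in mid-aged WT against young HSC, 0 to 5 for the difference of effects, 3 to 5 in Ly6D- CLP and 5 to 9 in Ly6D+ CLP against young HSC, 0 to 2 between the CLP fractions and 14 to 25 in CLP against mid-aged WT HSC. Ercc6l was not called lower in old HSC in the fit of all 16 arrays. For the difference of effects the count stayed 2 with quantile normalization and in the fit of all 16 arrays, but the genes changed. Asf1b was called in neither of these fits, and Ercc6l was not called in the fit of all 16 arrays. Each of these genes was called in 5 of 13 alternatives other than leaving out 1 array. The other alternatives stayed within 1.5 times the reported count. Why the counts moved was not tested.

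The replicate numbers did not pair the arrays throughout, although some same-numbered arrays varied alike. The deviations of same-numbered old and young arrays correlated at 0.509, 0.422 and -0.012, against -0.545 to 0.409 for differently numbered ones. For mutator and mid-aged WT arrays the values were 0.329, 0.077 and -0.062, against -0.441 to 0.477. Those of mid-aged WT and young arrays were 0.236, 0.123 and 0.034, against -0.212 to 0.201. Of the 25 mitosis members, replicate 1 was lowest for 25 (young), 21 (old) and 20 (mutator), but for 11 in mid-aged WT HSC. Replicate 3 was highest for 23, 22 and 19, but for 1 in mid-aged WT HSC. What lay behind this order was not tested. With the replicate number as a block, the count was 8 in old against young HSC, 13 in mid-aged WT against young HSC, 1 for the difference of effects, 29 in CLP against mid-aged WT HSC, and equal to the fit without the block in the other 4 comparisons. The fit without the mid-aged groups was not run for CLP against mid-aged WT HSC, since it would remove a group compared.

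Group sizes of 2 or 3 arrays limit these results, most of all for the mitosis members, whose arrays differ most within groups. Tyms lay near background on many arrays, so its values say little. Ccnb1 was not analysed here. The 5 arrays with the male pattern, the actin ratio of the mid-aged arrays and the summary method of the authors are limits of every comparison that uses those arrays.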
